A study of Mus musculus with 10 samples.

Results

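The open chromatin regions (OCRs) of 10 transcription factor genes that guide the development of innate lymphoid cells (ILCs) were compared between group 2 ILCs (ILC2s) of 5 mouse tissues. The genes were *Tcf7*, *Lef1*, *Tox*, *Tox2*, *Id2*, *Zbtb16*, *Bcl11b*, *Nfil3*, *Ets1* and *Gfi1*. A region of the deposited ATAC-seq count table belonged to a gene when its centre lay inside the gene or when its nearest RefSeq transcription start site (TSS) was one of that gene. Of 50039 regions, 162 met this rule, which uses position and no measured value. The list of genes and the rule were set with earlier results of these data known. *Tox* held 30 of them, *Ets1* 29, *Bcl11b* 24, *Zbtb16* 17, *Tcf7* 16, *Lef1* 14, *Gfi1* 10, *Nfil3* 10, *Tox2* 8 and *Id2* 4. All 162 had counts and were tested. ILC2s came from male C57BL/6 mice of 6 weeks, with 2 libraries of 50000 cells for each tissue. Each library pooled 16 mice for bone marrow (BM), lung and pancreas, and 10 mice for large intestine (LI) and small intestine (SI). The gate for BM was Lin–ST2+CD25+, and that for LI, lung and pancreas Lin–CD45+CD127+ST2+CD25+. The SI gate was Lin–CD45+CD127+KLRG1+ with an intermediate level of Thy1, and BM cells went through another sorter than the rest. The gate therefore changed with the tissue, and gate and tissue cannot be told apart where BM or SI differs.

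ILCs arise in the bone marrow from lymphoid progenitors through a series of steps, each marked by transcription factors that open and use chromatin for the next. *Nfil3* (a basic leucine zipper factor), *Tox* (an HMG-box factor), *Tcf7* (encoding TCF-1) and *Ets1* act early, and *Id2* holds back E proteins, which otherwise drive B and T cell fates. *Zbtb16* encodes PLZF, a zinc finger factor that marks the ILC precursor and then falls in most mature ILCs. *Bcl11b* and *Gfi1* encode zinc finger factors that set and keep ILC2 identity. *Lef1* and *Tox2* are close relatives of *Tcf7* and *Tox*. ATAC-seq counts the reads cut by a transposase in open chromatin, so a higher count reports a more accessible site and is not a measure of the gene's mRNA.

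For 6 of the genes, the central 300 bp of the region with the smallest p in the test of any difference between tissues is printed, because the accounts of those genes start from these regions. Letters are from the plus strand of GRCm38 (the RefSeq assembly matching mm10), 5′ to 3′. Capitals mark every match, on either strand, to 5 short motifs. The GATA motif was spelled as AGATAA, further with a changed first base as TGATAA, with a changed last base as AGATAG and with both changes as TGATAG. The RUNX motif was spelled as TGTGGTT and in a second form as TGCGGTT. The ETS motif was spelled as CCGGAAG and in a second form as CAGGAAG. The TCF/LEF motif was spelled as CTTTGAT and in a second form as CTTTGAA. The AP-1 motif was spelled as TGANTCA.
Zbtb16, chr9:48723588-48723887, intron 3, open in BM: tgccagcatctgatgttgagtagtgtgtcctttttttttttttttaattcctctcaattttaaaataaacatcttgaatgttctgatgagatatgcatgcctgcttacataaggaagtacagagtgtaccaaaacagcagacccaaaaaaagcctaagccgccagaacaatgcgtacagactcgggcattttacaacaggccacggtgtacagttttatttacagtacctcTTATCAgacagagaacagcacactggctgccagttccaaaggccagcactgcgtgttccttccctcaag
Bcl11b, chr12:107961924-107962223, intron 3, most open in lung: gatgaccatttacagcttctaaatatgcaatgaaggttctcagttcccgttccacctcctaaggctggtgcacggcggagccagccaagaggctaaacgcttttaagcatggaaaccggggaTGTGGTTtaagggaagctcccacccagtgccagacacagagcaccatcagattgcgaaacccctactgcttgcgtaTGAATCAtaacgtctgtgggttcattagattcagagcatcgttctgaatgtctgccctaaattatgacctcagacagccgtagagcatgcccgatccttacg
Tox, chr4:7172514-7172813, upstream, most open in LI: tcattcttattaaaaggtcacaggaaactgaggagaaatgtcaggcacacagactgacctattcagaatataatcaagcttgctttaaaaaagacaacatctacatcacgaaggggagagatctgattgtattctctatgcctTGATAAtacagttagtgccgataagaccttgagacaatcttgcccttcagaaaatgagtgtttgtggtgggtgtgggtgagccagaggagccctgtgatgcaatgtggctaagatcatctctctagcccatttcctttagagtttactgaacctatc
Gfi1, chr5:107731482-107731781, upstream, nearly closed in BM: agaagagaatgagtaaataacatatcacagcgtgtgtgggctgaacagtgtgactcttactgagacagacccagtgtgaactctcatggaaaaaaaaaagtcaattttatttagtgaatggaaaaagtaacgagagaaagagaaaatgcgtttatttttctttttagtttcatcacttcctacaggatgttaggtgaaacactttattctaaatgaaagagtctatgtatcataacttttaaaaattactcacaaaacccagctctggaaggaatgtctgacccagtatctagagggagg
Tcf7, chr11:52294107-52294406, upstream, nearly closed in BM: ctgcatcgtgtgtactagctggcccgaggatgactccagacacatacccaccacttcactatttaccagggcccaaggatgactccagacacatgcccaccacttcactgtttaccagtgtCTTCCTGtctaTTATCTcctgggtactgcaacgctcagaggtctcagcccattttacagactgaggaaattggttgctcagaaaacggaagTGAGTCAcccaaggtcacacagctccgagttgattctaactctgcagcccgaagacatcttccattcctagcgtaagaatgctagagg
Lef1, chr3:131157434-131157733, intron 3, low in SI: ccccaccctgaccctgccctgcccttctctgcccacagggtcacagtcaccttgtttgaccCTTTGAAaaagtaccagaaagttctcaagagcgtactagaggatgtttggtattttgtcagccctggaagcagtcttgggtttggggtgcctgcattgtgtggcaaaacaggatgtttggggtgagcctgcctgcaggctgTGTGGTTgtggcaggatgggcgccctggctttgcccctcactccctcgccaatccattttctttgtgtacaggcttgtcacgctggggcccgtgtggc

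In these windows no matches overlapped each other. The *Zbtb16* and *Tox* windows held 1 GATA match each, and the *Bcl11b* window held 1 RUNX and 1 AP-1 match. The *Tcf7* window held 1 ETS, 1 GATA and 1 AP-1 match, and the *Lef1* window 1 TCF/LEF and 1 RUNX match. The *Gfi1* window held none of the 5. Over all 50039 regions, a central 300 bp window held a GATA match in 38.2%, an ETS match in 25.3%, an AP-1 match in 18.3%, a RUNX match in 14.9% and a TCF/LEF match in 9.29%. Such a match describes letters and does not show that a factor binds there.

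The libraries held 10282987 to 32797872 counted reads, with a median of 71 to 259 counts a region, and the smallest was pancreas library 2. ILC2 marker promoters were open in every tissue: 13 of 14 genes had a promoter region, and their summed level was 267 to 438 CPM (counts scaled to 1000000 a library, after TMM scaling of library size). *Klrg1* was lower in BM, at 8.14 CPM against 29.5 to 54.2, and *Il1rl1* (encoding ST2) was lower in SI, at 2.94 CPM against 6.53 to 21.1. Mast cell and basophil markers (5 genes) and ILC3 markers (5 genes) had no promoter region. Other regions at some of these genes had signal, with sums of 67.0 to 124.5 CPM at *Hdc*, 13.6 to 29.8 at *Cpa3*, 8.80 to 38.2 at *Il17a* and 4.95 to 19.2 at *Il22* over the tissue means, and their part in the results was not tested. The 2 BM libraries also carried a trend with base composition: regions under 45% GC deviated by -0.236 and -0.246 from a flat trend on the log2 scale, by 0.222 and 0.237 in LI, and by 0.0589 and 0.280 in pancreas. Fewer cells of a type with a site open and a less open site in each cell cannot be told apart in pooled cells.

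Tissue differences were common at the 10 genes, most of whose regions lay outside promoters. Of 162 regions, 85 (52.5%) differed over the 5 tissues (edgeR's quasi-likelihood F test, adjusted p under 0.05 over all regions), beside 44.2% of all 49981 regions tested. Among 9 promoter regions (centre at most 1000 bp upstream or 100 bp downstream of a TSS) 1 differed, beside 30.9% of all promoter regions. *Gfi1* had no promoter region by this rule. Among the 153 other regions, 84 (54.9%) differed, beside 47.3% of all such regions. The share ran from 16 of 17 regions at *Zbtb16* and 17 of 24 at *Bcl11b* to 3 of 14 at *Lef1*. At *Tox* 15 of 30, at *Ets1* 13 of 29, at *Tcf7* 5 of 16, at *Gfi1* 5 of 10, at *Nfil3* 5 of 10, at *Tox2* 5 of 8 and at *Id2* 1 of 4 regions differed.

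BM stood apart most often, and in opposite directions at different genes. A region was called a tissue-specific (TS) OCR when 4 contrasts set its tissue above, or below, each other tissue, all with an unadjusted p under 0.05. In BM, 13 regions were TS higher (8.02%, beside 4.50% of all regions), of which 12 belonged to *Zbtb16* and 1 to *Gfi1*. In BM, 22 regions were TS lower (13.6%, beside 6.63%), from 8 genes: *Tox*, *Bcl11b* and *Ets1* with 5 each, *Lef1* and *Gfi1* with 2 each, and *Tcf7*, *Tox2* and *Nfil3* with 1 each. The differences from the nearest other tissue ran from 0.55 to 2.97 (median 1.07) among the former and from 0.65 to 2.30 (median 1.00) among the latter, as log2 fold changes. With an adjusted p under 0.05 asked of each contrast, 7 and 15 regions were left. The share of all regions at that threshold is not given here, so these 2 counts cannot be set against it. The count of TS higher regions in BM was 8 without BM library 2 and 7 without pancreas library 1.

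The other tissues had at most 5 TS OCRs in a direction at these genes. In LI, 5 regions were higher (1.30% of all regions were) and 0 were lower, as with DESeq2 (0.132% of all regions were). In lung, 2 were higher (1.30% of all) and 4 lower (1.72% of all). In pancreas, 1 was higher (1.43% of all) and 0 were lower, as with DESeq2 (0.572% of all). In SI, 3 were higher (2.80% of all) and 5 lower (3.59% of all). In lung the count of lower regions was 1 without lung library 2 and 2 without pancreas library 2, and that of higher regions 1 without either lung library and 7 with library size alone. In LI the count of higher regions ran from 1 to 8 with 1 library left out and was 0 with the GC trend removed. In SI the count of lower regions was 14 without SI library 2 and 2 without LI library 2, and that of higher regions 0 without either LI library. The plot of shares by tissue sets the 162 regions beside all regions.

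**Figure D1:**
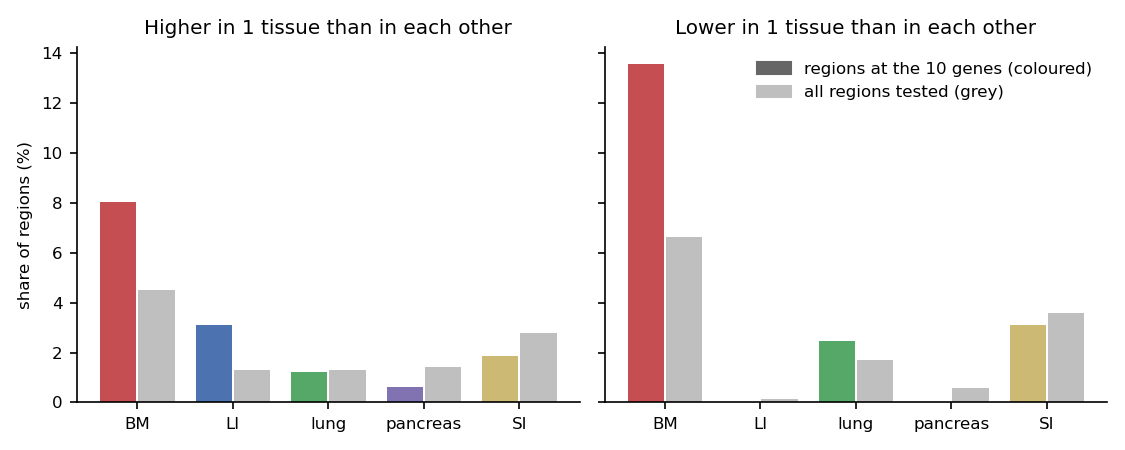
Share of regions (%, y axis) that were higher (left) or lower (right) in 1 tissue than in each other tissue (x axis), for the 162 regions at the 10 genes (coloured bars) and all 49981 regions tested (grey bars). BM has the tallest coloured bars in both directions, 8.02% and 13.6%, against grey bars of 4.50% and 6.63%.

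Summed over all regions of a gene and divided by their length, accessibility was highest at *Id2* (mean of the 10 libraries 57.5 CPM per kb) and lowest at *Zbtb16* (16.0) and *Bcl11b* (16.3). Sums differed over the tissues for 4 of 10 genes, *Zbtb16*, *Bcl11b*, *Gfi1* and *Tox*, beside 41.5% of all 17345 genes (edgeR, adjusted p under 0.05). Against the mean of the other 4 tissues, BM was higher for *Zbtb16*, *Id2* and *Gfi1* (23.6% of all genes were) and lower for *Tox* and *Bcl11b* (10.0% of all). LI was lower for *Zbtb16* (2.11% of all genes) and higher for none of the 10 in edgeR, with 2 at an unadjusted p under 0.05 and 1 in DESeq2 (5.08% of all genes). Lung was higher for *Bcl11b* (3.94% of all genes) and lower for *Zbtb16* (4.76% of all). SI was lower for *Gfi1* alone in edgeR, with 4 at an unadjusted p under 0.05 and 3 in DESeq2 (7.86% of all genes). It was higher for 0 in edgeR, at an unadjusted p under 0.05 and in DESeq2 (8.47% of all). Pancreas was higher for 0 in edgeR and DESeq2 with 1 at an unadjusted p under 0.05 (4.96% of all genes), and lower for 0 by all 3 counts (2.13% of all).

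**Figure D2:**
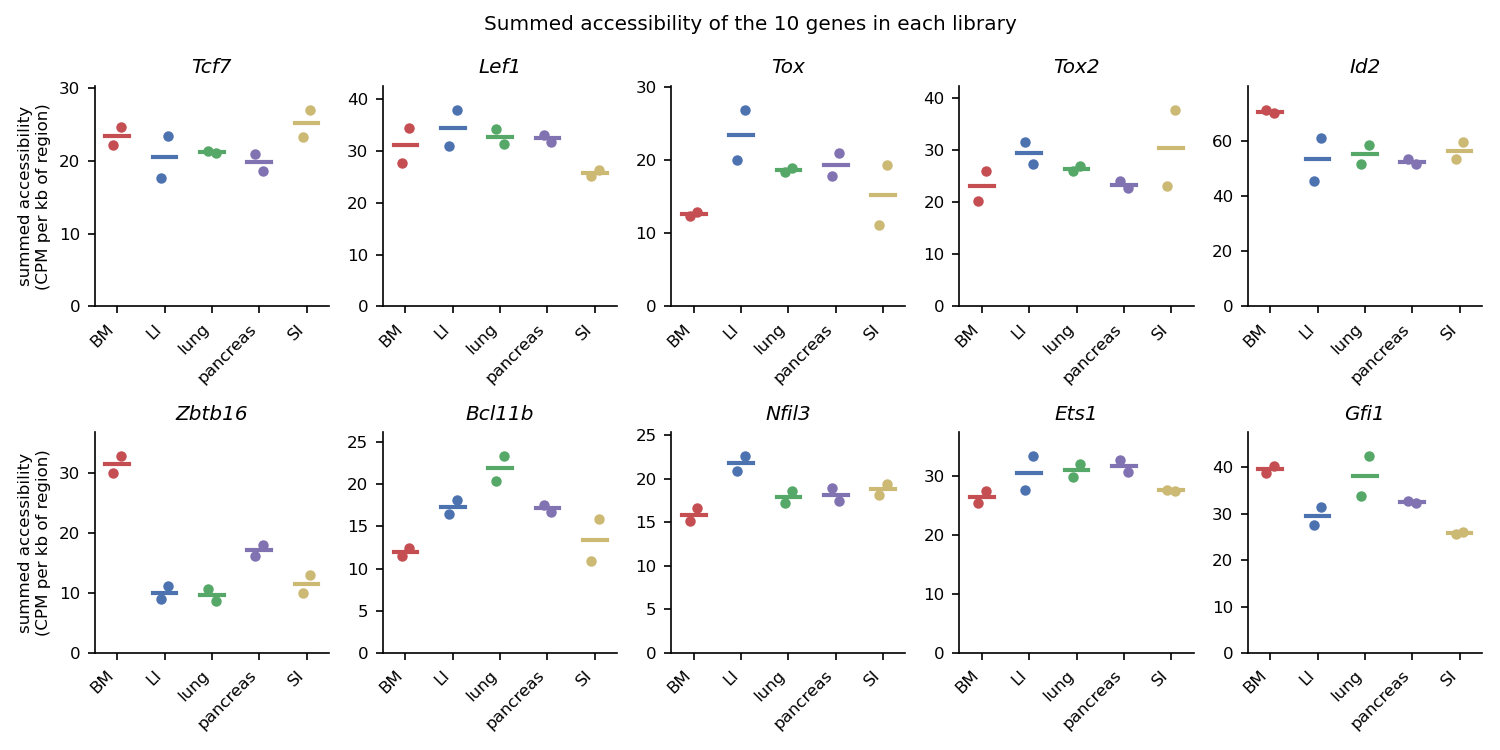
Summed accessibility (CPM per kb of region, y axis from 0) of each of the 10 genes in the 2 libraries (points) of each tissue, with the tissue mean (bar). Both BM points of *Zbtb16*, 30.2 and 32.9, lie above all other points of that gene, which reach 18.1.

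*Zbtb16*, the gene of PLZF, was more accessible in BM ILC2s, as a sum and at 12 of its 17 regions singly. Its summed accessibility was 30.2 and 32.9 CPM per kb in BM. It was 16.2 and 18.1 in pancreas, 10.02 and 13.01 in SI, 8.95 and 11.2 in LI, and 10.8 and 8.68 in lung. The BM libraries overlapped with no others, and both pancreas libraries lay above all of LI, lung and SI. BM exceeded the mean of the other 4 by 1.42 ± 0.12 (log2 fold change ± SE, adjusted p = 2.80e-06), LI differed from it by -0.63 ± 0.14 (adjusted p = 0.0111) and lung by -0.71 ± 0.14 (adjusted p = 0.00414). In the order of levels BM exceeded pancreas (log2 fold change 0.88, adjusted p = 0.00231) and pancreas exceeded SI (0.57, adjusted p = 0.0287), while SI, LI and lung were not separated (adjusted p = 0.482 and 0.865 for neighbours). The LI call was lost without LI library 1 (-0.48, adjusted p = 0.193) and the lung call without lung library 2 (-0.55, adjusted p = 0.254).

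The 12 BM TS higher regions of *Zbtb16* reached from the region 1.1 kb upstream of the TSS through the promoter and introns 2 and 3 to intron 4, 120.6 kb downstream. The largest difference was at chr9:48723487-48723987 in intron 3, 112.2 kb downstream of the TSS, the window printed above. It had 27.2 and 13.3 CPM in BM, 1.59 and 0.94 in SI, 2.24 and 3.02 in pancreas, 1.76 and 1.21 in lung, and 1.05 and 0.478 in LI. The BM libraries differed widely from each other but lay above all others, and BM exceeded pancreas, its nearest, by a log2 fold change of 2.97 (adjusted p = 0.000132 by edgeR). A second intron 3 region, 102.0 kb downstream, had 2.99 and 3.27 CPM in BM and 0.521 to 1.19 elsewhere (1.72 over its nearest tissue, log2), a call lost without pancreas library 1 (1.39). In intron 2, 29.1 kb downstream, a signal of 38.7 and 53.6 CPM in BM stood against 5.49 to 23.9 elsewhere (1.35). At 10 of the 12 regions pancreas had the second highest mean, and at 2 SI did. The count of such regions at *Zbtb16* was 5 without pancreas library 1, 8 without BM library 2, and 9 without BM library 1 or pancreas library 2.

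The *Zbtb16* promoter region, at chr9:48835791-48836490, was the 1 of 9 promoter regions that differed between tissues (adjusted p = 2.66e-05 by edgeR). *Gfi1* had no region in the promoter window, and its region at the TSS, just outside the window, differed as well. The *Zbtb16* promoter region had 20.2 and 24.0 CPM in BM, 14.1 and 15.4 in pancreas, and 5.52 to 8.19 in LI, lung and SI. At this *Zbtb16* promoter, BM and pancreas thus lay above the other 3 tissues without overlap. The region of *Zbtb16* with the most signal per length, 18.5 kb downstream in intron 2, was shared between BM (30.8 and 35.6 CPM) and pancreas (30.4 and 33.4), with 16.9 to 24.1 in the others. Another intron 2 region, 9.5 kb downstream, was TS higher in pancreas (10.3 and 10.0 CPM, against 3.77 to 4.80 in BM, LI and SI) and TS lower in lung (2.04 and 1.68). Upstream, 18.2 kb from the TSS, a region was TS lower in SI, with 0.915 and 0.801 CPM there, 8.12 and 8.19 in BM, and 1.55 to 5.93 elsewhere, a call lost without LI library 2 or lung library 1 (log2 -1.11 and -0.87, from -1.59) and with counts thinned to the smallest library (-0.95). The 3 regions farthest downstream, from 120.6 to 179.9 kb, lay closer to the TSS of *Nnmt* and counted here because they lie inside *Zbtb16*. Progenitor marker promoters (*Flt3* and *Meis1*, the 2 of 6 with a promoter region) summed to 29.8 to 44.0 CPM in BM and 20.0 to 40.1 elsewhere, with *Flt3* at 11.9 CPM in BM and 15.7 in SI, and *Meis1* at 24.9 in BM and 19.01 to 20.9 elsewhere. Summed over all their regions, *Mecom* had 55.9 CPM in BM and 27.7 to 52.9 elsewhere, *Hoxa9* 6.50 and 3.70 to 4.86, and *Kit* 262.9 and 362.8 to 512.5, so that 3 of the 5 genes with a region had their highest mean in BM. *Cd34* had no region. The part of other cells in the *Zbtb16* result was not tested.

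**Figure D3:**
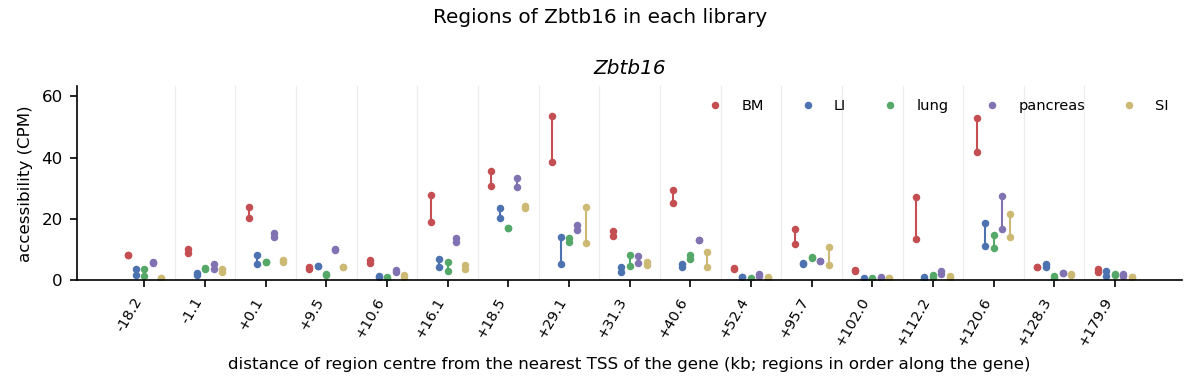
Accessibility (CPM, y axis) of the 17 *Zbtb16* regions in the 2 libraries of each tissue (points joined by a line), placed in order along the gene and labelled with the distance from the TSS in kb (x axis, evenly spaced). BM points are the highest at 12 regions that pass in all 4 contrasts; at +9.5 kb the pancreas points, 10.3 and 10.0 CPM, are highest.

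*Bcl11b*, which fixes ILC2 identity, showed the reverse of *Zbtb16* in BM and was most accessible in lung. Its summed level was 11.5 and 12.4 CPM per kb in BM, 10.9 and 15.8 in SI, 17.5 and 16.8 in pancreas, 20.4 and 23.3 in lung, and 16.4 and 18.1 in LI. Both lung libraries were the highest, and BM overlapped with SI. BM differed from the mean of the other 4 by -0.53 ± 0.14 (log2, SE, adjusted p = 0.00844) and lung by 0.57 ± 0.12 (adjusted p = 0.00945). Neighbours in the order lung, LI, pancreas, SI, BM did not differ (adjusted p from 0.148 to 0.993), while lung exceeded BM by 0.87 (adjusted p = 0.00236). The BM call was lost without BM library 1 (-0.47, adjusted p = 0.129) and the lung call without lung library 2 (0.48, adjusted p = 0.304). T cell marker promoters (6 of 10 genes had one) summed to 126.5 to 129.5 CPM in lung and 66.5 to 100.9 elsewhere, most of it from *Zap70* (69.6 CPM in lung) and *Lat* (40.7). The other promoters were not highest in lung. *Cd3e* had 3.69 CPM in lung and 3.11 to 5.01 elsewhere, and *Cd3g* 4.83 and 1.35 to 5.62. *Cd5* had 2.81 CPM in lung and 1.39 to 4.98 elsewhere, and *Themis* 6.37 and 4.99 to 9.14. Among genes without a promoter region, sums over their regions were also not highest in lung. *Cd3d* had 71.9 CPM in lung and 50.0 to 78.9 elsewhere, *Cd4* 4.12 and 2.72 to 6.34, and *Cd6* 8.89 and 4.11 to 18.5. *Cd8a* had no region. The part of such cells in the *Bcl11b* result was not tested.

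Both regions TS higher in lung were intronic. At chr12:107961819-107962328, in intron 3 and 41.3 kb downstream of the TSS, lung had 24.6 and 31.4 CPM, pancreas 13.2 and 15.4, LI 11.9 and 10.3, SI 3.03 and 6.65, and BM 2.45 and 3.64. The 5 tissues followed each other with no overlap between lung, pancreas, LI and the pair of SI and BM. Lung exceeded pancreas by a log2 fold change of 0.97 (adjusted p = 0.0741 by edgeR) and BM by 3.20 ± 0.34 (SE), a TS call lost without lung library 2 or pancreas library 1 (0.79 and 0.86). A neighbour 42.2 kb downstream was also TS higher in lung (12.2 and 10.3 CPM against 3.68 to 6.54), a call lost without lung library 1 (log2 0.68, from 0.80). In intron 3, 62.7 kb downstream, LI was TS higher (12.5 and 8.60 CPM against 2.21 to 6.27), a call lost without LI library 1 (log2 0.58, from 0.86), lung library 2 (0.74) or pancreas library 1 (0.74), with library size alone (0.59) and with the GC trend removed (0.59). Upstream of the gene the order turned. The regions 38.4 and 52.8 kb upstream were TS lower in lung, with 0.690 to 1.41 CPM there and 1.65 to 4.49 elsewhere, but the farther call was lost in 3 of 10 fits with 1 library left out. The nearer call was lost in 8 of 10 such fits and in 6 of 9 other settings, and its test over the 5 tissues did not pass (adjusted p = 0.121 by edgeR). The promoter region, 0.7 kb upstream, had 15.1 to 34.2 CPM and no difference that passed (adjusted p = 0.326 by edgeR).

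*Tox*, needed for early ILC progenitors, was less accessible in BM and had its most variable region far upstream. Its summed level was 12.3 and 12.9 CPM per kb in BM, 11.1 and 19.3 in SI, 17.8 and 20.95 in pancreas, 18.4 and 18.9 in lung, and 20.1 and 26.9 in LI. BM lay below all but 1 SI library. BM differed from the mean of the other 4 by -0.59 ± 0.17 (log2, SE, adjusted p = 0.0167), and LI exceeded BM by 0.90 (adjusted p = 0.00548), while no neighbours in the order LI, pancreas, lung, SI, BM differed (adjusted p from 0.379 to 0.905). The median *Tox* region had 40.9% GC, beside 49.8% over all regions, and BM libraries were low in such regions. With the GC trend removed the difference was -0.32 (adjusted p = 0.179), and it was also lost without either BM library (-0.56, adjusted p = 0.168, and -0.62, adjusted p = 0.0910).

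Single regions of *Tox* differed far more than the sum. At chr4:7172389-7172938, 181.1 kb upstream of the TSS, LI had 24.2 and 31.4 CPM, SI 12.1 and 23.7, pancreas 12.7 and 17.0, lung 6.59 and 6.76, and BM 4.11 and 3.27. LI lay above all other libraries and BM below all (adjusted p of any difference = 1.93e-05 by edgeR), with LI over BM at 2.92 ± 0.32 (log2, SE). It was TS higher in LI and TS lower in BM. The count of *Tox* regions higher in LI, 3 with this one, was 0 with library size alone, with the GC trend removed and without LI library 2, pancreas library 1 or SI library 1. That of *Tox* regions lower in BM, 5 with this one, was 2 without BM library 2 or SI library 2. In intron 2, 87.0 kb downstream, lung was highest at 26.9 and 23.5 CPM and BM lowest at 3.62 and 2.76, with 6.40 to 22.5 in the others. BM differed from its nearest tissue there by -1.62 (log2, adjusted p = 0.00232 by edgeR). In the same intron, 75.7 kb downstream, LI had 4.36 and 5.17 CPM against 1.41 to 3.34, but the test over the 5 tissues did not pass (adjusted p = 0.133 by edgeR) and the LI call was lost in 8 of 10 fits with 1 library left out. By contrast the strongest *Tox* region, 14.9 kb downstream in intron 2, had 34.4 to 89.3 CPM with no difference that passed (adjusted p = 0.258). The *Tox* promoter region had 11.9 to 24.5 CPM (adjusted p = 0.269).

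**Figure D4:**
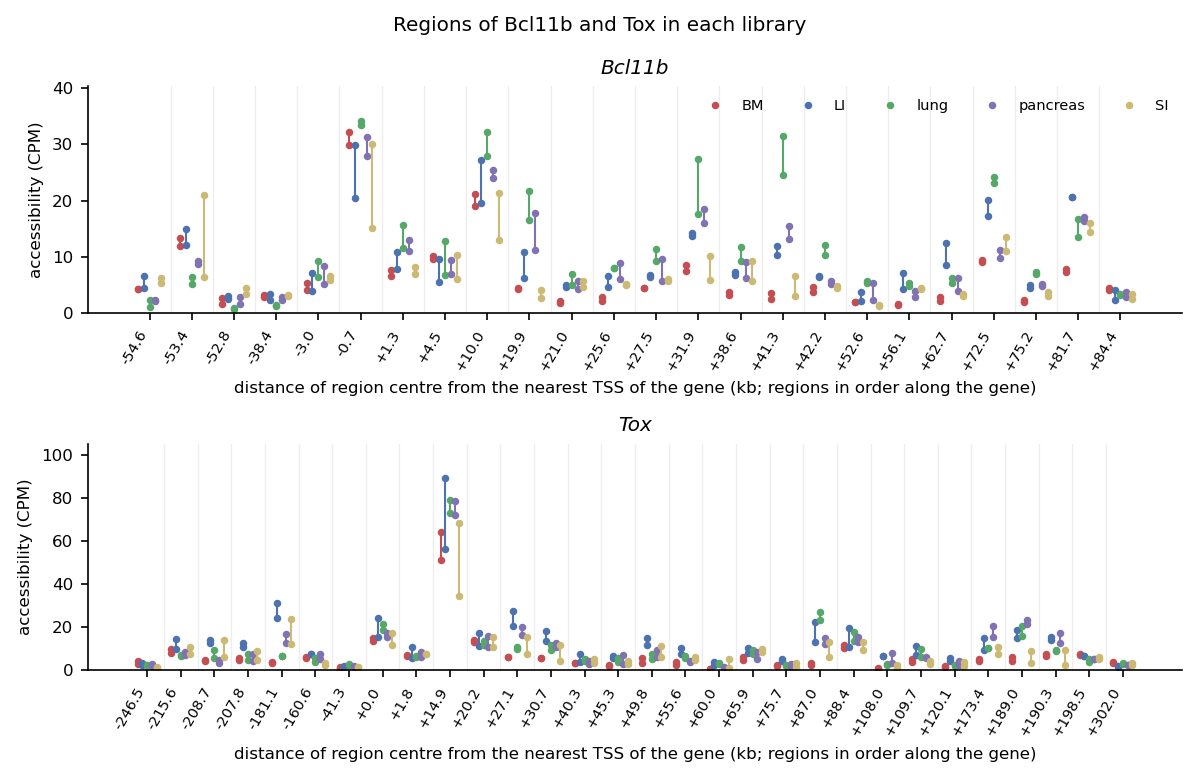
Accessibility (CPM, y axis) of the 24 *Bcl11b* regions (top) and the 30 *Tox* regions (bottom) in the 2 libraries of each tissue (points joined by a line), in order along each gene and labelled with the distance from the TSS in kb (x axis, evenly spaced). At *Bcl11b* +41.3 kb the lung points, 24.6 and 31.4 CPM, lie above all others; at *Tox* -181.1 kb the LI points, 24.2 and 31.4 CPM, do.

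*Ets1*, an ETS factor used by several lymphocyte lineages, had a flat sum, and its regions differed about as often as all regions. Its summed level ran from 25.5 to 33.4 CPM per kb over the 10 libraries and did not differ over the tissues (adjusted p = 0.431 by edgeR). Of 29 regions, 13 differed (44.8%, beside 44.2% of all regions tested). The 5 TS regions were all lower in BM (17.2%, beside 6.63% of all regions), in introns 16.6 to 55.7 kb downstream of a TSS. The region with the smallest p was intergenic, 63.9 kb downstream of a TSS at chr9:32759664-32760164, with 8.37 and 6.73 CPM in LI, 2.24 and 6.47 in pancreas, 2.17 and 2.72 in SI, 0.980 and 1.24 in lung and 0.832 and 1.01 in BM. LI lay above all others, and over BM by 3.02 ± 0.49 (log2, SE). The strongest region, 47.9 kb downstream in intron 8, had 31.3 to 62.4 CPM (adjusted p = 0.0744), and the promoter region 38.3 to 63.2 CPM (adjusted p = 0.124).

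*Gfi1*, a repressor that supports ILC2 development, rose in BM and fell in SI as a sum. Its level was 38.8 and 40.4 CPM per kb in BM, 25.7 and 26.1 in SI, 32.8 and 32.4 in pancreas, 33.9 and 42.4 in lung, and 27.7 and 31.4 in LI. SI lay below all other libraries, and BM overlapped with lung. BM exceeded the mean of the other 4 by 0.34 ± 0.11 (log2, SE, adjusted p = 0.0251), and SI differed from it by -0.42 ± 0.12 (adjusted p = 0.0201). Both calls were lost with library size alone as the scaling (adjusted p = 0.217 and 0.232), the BM call without either BM library or lung library 1 (adjusted p from 0.0734 to 0.146) and the SI call without either SI library (adjusted p = 0.0734 and 0.0566). Its region with the most signal lay at the TSS, at chr5:107725223-107726112, centred 0.1 kb downstream and just outside the promoter window. This wide region had the highest mean CPM of all 162, though not the highest per kb (86.3, against 121.5 at the strongest *Tox* region), with 111.7 and 107.2 CPM in BM, 93.4 and 111.0 in lung, 66.2 and 60.5 in pancreas, 54.9 and 61.3 in LI, and 59.3 and 41.6 in SI (adjusted p = 0.000473 by edgeR). BM and lung lay above the other 3 tissues.

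The upstream region of *Gfi1*, at chr5:107731381-107731881 and 5.8 kb from the TSS, did the opposite. It had 0.685 and 1.01 CPM in BM, 3.03 and 5.33 in SI, 4.06 and 7.98 in pancreas, 3.61 and 6.82 in lung, and 9.33 and 8.34 in LI. BM lay below all other libraries and differed from its nearest tissue by -2.30 (log2, adjusted p = 0.0015 by edgeR). Farther upstream, 6 regions lay inside *Evi5*, the neighbouring gene. Of these, one 33.5 kb upstream was TS higher in BM (46.6 and 56.8 CPM against 21.6 to 35.6), one 30.5 kb upstream TS lower in BM (7.24 and 6.44 against 8.86 to 22.0), and one 46.5 kb upstream TS lower in SI (4.33 and 5.92 CPM against 8.02 to 16.8), a call lost without LI library 2 (log2 -0.66, from -0.96). The region higher in BM was the 1 such region of *Gfi1*, and the count was 0 with library size alone and without BM library 2, either lung library or either pancreas library. The count of *Gfi1* regions lower in BM, 2 with the one 5.8 kb upstream, was 1 without BM library 2 or lung library 2 and with the replicate block and the GC trend removed.

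*Tcf7*, whose product TCF-1 appears early among ILC progenitors, did not differ as a sum. It differed at 5 of 16 regions (31.25%), a lower share than the 44.2% of all regions tested. Its summed level ran from 17.7 to 27.1 CPM per kb (adjusted p = 0.272 by edgeR), and the promoter region was weak, with 2.37 to 6.38 CPM (adjusted p = 0.240). The strongest region, 16.7 kb downstream in intron 3, had 31.4 to 59.5 CPM (adjusted p = 0.380). The exception was chr11:52293997-52294515, 11.2 kb upstream, with 0.832 and 1.24 CPM in BM, 4.09 and 2.82 in SI, 7.42 and 6.80 in pancreas, 7.997 and 9.88 in lung, and 2.96 and 4.95 in LI. BM lay below all and differed from its nearest tissue by -1.72 (log2, adjusted p = 0.00312 by edgeR), and lung exceeded BM by 3.10 ± 0.37 (SE). In intron 3, 8.4 kb downstream, SI was TS higher with 6.45 and 4.29 CPM against 1.15 to 2.70, a call lost without SI library 1 (log2 0.64, from 1.00) or either LI library (1.01 and 0.97).

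*Lef1*, the relative of *Tcf7*, had a sum of 25.2 to 37.9 CPM per kb that did not differ over the tissues (adjusted p = 0.182 by edgeR). Its region at chr3:131157319-131157848, in intron 3 and 1.3 kb from an internal TSS, was TS lower in SI, with 4.96 and 4.81 CPM there against 10.6 to 17.6 in the other 8 libraries. SI differed from its nearest tissue by -1.29 (log2, adjusted p = 0.00115 by edgeR). Intron 9 held the strongest *Lef1* region, 52.3 kb from a TSS, with 51.1 to 110.3 CPM (adjusted p = 0.0633), and the promoter region had 21.6 to 37.1 CPM (adjusted p = 0.115).

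*Id2*, which holds E proteins in check, had the highest level per length of the 10 genes. Its sum was 71.2 and 69.9 CPM per kb in BM and 45.3 to 61.1 in the other 8 libraries, with no overlap. BM exceeded the mean of the other 4 by 0.38 ± 0.12 (log2, SE, adjusted p = 0.0215), while the test over all 5 tissues did not pass (adjusted p = 0.115 by edgeR). The BM call was lost with the GC trend removed (0.20, adjusted p = 0.297), with library size alone (0.29, adjusted p = 0.176) and without either BM library or lung library 1 (adjusted p from 0.0581 to 0.159). The promoter region showed the same order, with 77.9 and 74.9 CPM in BM and 42.6 to 59.95 elsewhere, just short of the threshold (adjusted p = 0.0540). One *Id2* region, inside the neighbouring gene *Kidins220*, was TS lower in SI (1.30 and 2.23 CPM against 3.17 to 7.72). That call was lost with library size alone, with the GC trend removed, with counts thinned to the smallest library, and without SI library 1 or either LI library.

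*Nfil3* and *Tox2* had sums that did not differ over the tissues (adjusted p = 0.0918 and 0.247 by edgeR), at 15.1 to 22.6 and 20.2 to 37.8 CPM per kb. For *Nfil3*, the 2 LI libraries had the highest sums, 20.9 and 22.6, and the 2 BM libraries the lowest, 15.1 and 16.7. LI exceeded BM by 0.45 (adjusted p = 0.0168). The *Nfil3* region with the smallest p, 128.7 kb upstream and inside *Ror2*, had 10.2 and 10.5 CPM in BM and 2.16 to 6.83 elsewhere, without overlap (adjusted p = 0.00556). One region 9.7 kb downstream of its TSS was TS higher in LI (7.06 and 5.43 CPM against 1.62 to 3.90), and one 43.4 kb upstream TS higher in SI (4.14 and 5.92 against 0.939 to 2.37); the former was lost in 3 of 10 fits with 1 library left out, with library size alone and with the GC trend removed, and the latter in 4 of 10 such fits and with thinned counts. Upstream of *Tox2*, 38.4 kb from the TSS, a region was TS higher in SI (7.94 and 9.20 CPM against 2.202 to 5.91), a call lost in 7 of 10 fits with 1 library left out and in 5 of 9 other settings. The promoters of both were open in every library, at 32.5 to 49.5 CPM for *Nfil3* (adjusted p = 0.386) and 16.9 to 50.6 for *Tox2* (adjusted p = 0.229).

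Over all 162 regions the median log2 fold change of BM against the mean of the other 4 was -0.24, beside 0.00 over all regions, and 102 regions were lower and 60 higher in BM. The medians by gene were 1.52 at *Zbtb16*, 0.36 at *Id2*, 0.21 at *Tcf7*, -0.14 at *Gfi1*, -0.15 at *Lef1*, -0.25 at *Ets1*, -0.41 at *Nfil3*, -0.48 at *Tox2*, -0.57 at *Tox* and -0.71 at *Bcl11b*. With the GC trend removed the median over the 162 regions was -0.16, 14 regions were TS higher in BM and 19 TS lower. The median was negative under each of the 4 scalings tried, from -0.33 to -0.16. The plot by gene shows both versions for each region.

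**Figure D5:**
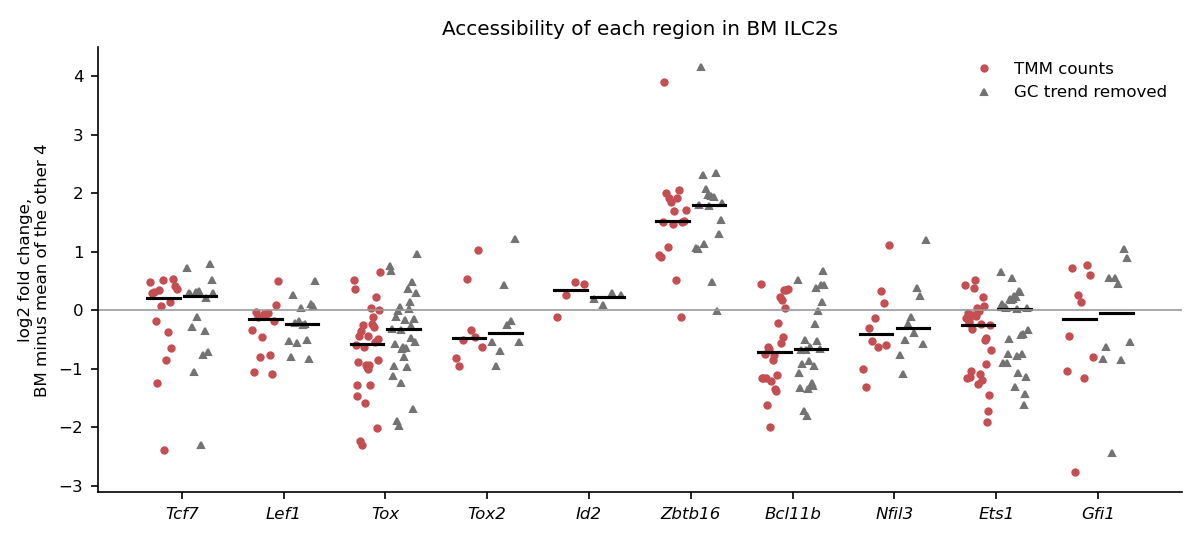
Log2 fold change of BM against the mean of the other 4 tissues (y axis) for each of the 162 regions, by gene (x axis), from TMM-scaled counts (red circles) and with the GC trend of each library removed (grey triangles), with the median (black bar). The *Zbtb16* circles have a median of 1.52 and the *Bcl11b* circles one of -0.71.

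The TS regions of the 10 genes were described by base composition, position and motif letters, with no test. The median GC content was 46.0% in the 13 regions higher in BM and 46.9% in the 22 lower in BM. Of the 13, 1 was a promoter and 11 were intragenic; of the 22, 0 were promoters and 18 were intragenic. Within the central 500 bp, a GATA match lay in 102 of 162 regions (63.0%, beside 52.3% of all regions) and an AP-1 match in 55 (34.0%, beside 23.2%). ETS matches (34.6% beside 34.4%), RUNX matches (22.8% beside 20.0%) and TCF/LEF matches (19.1% beside 15.2%) lay closer to the share of all regions. E-box letters (CAGCTG and in a second form CAGGTG), the kind of site that E proteins bind, were found in 49.4% beside 49.9%. KLF letters (GGGNGTGG) were found in 14.8% beside 21.2%. ROR (TAGGTCA), STAT (TTCNNGGAA), IRF (GAAANNGAA), AHR (TTGCGTG) and NFIL3-type letters (TTACGTAA and in a second form TTATGTAA) were found in 6.79%, 8.64%, 13.6%, 1.85% and 1.23%, beside 5.01%, 6.75%, 14.9%, 2.01% and 1.74%. Among the 13 regions higher in BM, 11 held a GATA, 3 an AP-1 and 1 an ETS match, and over all regions higher in BM the shares were 64.4%, 12.7% and 31.6%. Among the 22 lower in BM, 15 held a GATA, 10 an AP-1 and 9 an ETS match, and over all regions lower in BM the shares were 60.2%, 46.8% and 35.0%.

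How far the regions of 1 gene moved together differed between the genes. The median Pearson correlation of log2 CPM between 2 regions of the same gene, over the 10 libraries, was 0.72 at *Zbtb16*, 0.46 at *Tox*, 0.38 at *Bcl11b*, 0.15 at *Ets1*, 0.08 at *Nfil3* and 0.02 at *Gfi1*. Between regions of different genes it was 0.05 over 11453 pairs. These regions share libraries, depth and base composition, so the values are a description. Between the sums of 2 genes the correlation was highest for *Bcl11b* with *Tox* (0.78) and lowest for *Nfil3* with *Zbtb16* (-0.67).

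Of 6987 other genes with 3 or more regions, those whose sums were most like a member's over the 10 libraries are named with the Pearson correlation, as a description. They were *Arhgap21* (0.94) and *Exoc3l2* (0.93) for *Zbtb16*, *Ints4* (0.99) and *Capn2* (0.96) for *Bcl11b*, and *Sv2c* (0.96) and *Sgms1* (0.95) for *Tox*. For *Gfi1* they were *Tmem51* and *Tmem51os1* (both 0.97), for *Id2* *Rab7* (0.96) and *5031425E22Rik* (0.94), and for *Nfil3* *Klf4* (0.97) and *Rgs13* (0.95). For *Ets1* they were *Septin11* (0.92) and *Ikbkb* (0.91), for *Tcf7* *F12* (0.92) and *Spag16* (0.91), for *Lef1* *AU041480* (0.95) and *Smco4* (0.93), and for *Tox2* *St7* (0.93) and *Prickle1* (0.88).

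Genes that act with these factors were summed in the same way. Of 6 E protein and other ID protein genes, 2 differed over the tissues, beside 41.5% of all genes: *Tcf3*, which encodes the E protein E2A, was higher in BM (0.69 ± 0.14, log2 and SE, adjusted p = 0.00211), and *Tcf12*, another E protein gene, in SI (0.57 ± 0.12, adjusted p = 0.00398). Of 12 relatives and TCF cofactors, 5 differed (41.5% of all genes did), 7 were higher in BM (23.6% of all) and 0 lower (10.0% of all), and 3 were lower in SI (7.86% of all). *Bcl11a*, the relative of *Bcl11b*, was higher in BM (24.9 ± 0.57 CPM per kb, SD, n = 2, against 6.89 to 13.3 for the other means; 1.34 ± 0.15, adjusted p = 1.89e-05) and lower in lung (-0.98 ± 0.17, adjusted p = 0.00190). *Gfi1b*, the relative of *Gfi1*, was higher in BM (1.53 ± 0.30, adjusted p = 0.00183), as were *Ctnnb1* (1.01 ± 0.24, adjusted p = 0.00600), which encodes the TCF partner beta-catenin and had 1 region, and *Tle1* (0.37 ± 0.13, adjusted p = 0.0333), a co-repressor. The BM libraries of *Gfi1b* were far apart (mean 9.06 CPM per kb, SD 4.27, n = 2), beside a mean of 4.54 (SD 2.51) in SI. *Tle1* was also lower in SI (-0.65 ± 0.13, adjusted p = 0.00386).

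Of 18 other regulators of ILC development, 10 differed over the tissues, beside 41.5% of all genes. In SI 5 were higher (8.47% of all genes) and 3 lower (7.86%), in BM 2 were higher (23.6%) and 3 lower (10.0%), and in pancreas 3 were lower (2.13%). *Myb*, a progenitor factor, was higher in SI (0.98 ± 0.20, adjusted p = 0.00303). Its SI libraries differed widely from each other (mean 20.1 CPM per kb, SD 9.70, n = 2), beside a mean of 13.9 (SD 1.60) in BM. *Stat5b* and *Stat5a*, which act below the IL-7 receptor, were higher in SI (0.74 ± 0.14, adjusted p = 0.00184, and 0.48 ± 0.11, adjusted p = 0.00682) and lower in pancreas (-0.71 ± 0.16, adjusted p = 0.0111, and -0.54 ± 0.12, adjusted p = 0.0104). *Stat5a* was also higher in BM (0.46 ± 0.11, adjusted p = 0.00511). The SI libraries of *Stat5b* were far apart (mean 27.7 CPM per kb, SD 8.88, n = 2), beside a mean of 20.6 (SD 0.354) in LI. Fits with 1 library left out are not given for the genes of these lists. *Kit*, a receptor of progenitors, was lower in BM (-0.73 ± 0.15, adjusted p = 0.00194) and higher in LI (0.47 ± 0.13, adjusted p = 0.0428).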

How the data were processed

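ATAC-seq was done on ILC2s of BM, LI, lung, pancreas and SI, with 2 libraries a tissue. Per the labels and the study's methods, the authors checked reads with FastQC 0.11.9, aligned them to mm10 with Bowtie2 2.2.9, used SAMtools 1.8, called peaks with MACS2 2.1.1 and counted reads over the merged peaks of all libraries. The deposited values are raw counts per region and library (50039 regions of 500 to 2112 bp, 10282987 to 32797872 counts a library). Removal of duplicates and any shift of read ends are not given in the sources used here, and the coordinates are printed as deposited, whether starts count from 0 or 1 not being stated.

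Regions were placed with curated RefSeq transcripts of GRCm38. Counts were tested with edgeR 4.0.16 (quasi-likelihood, TMM scaling, tissue as the only term, all 10 libraries, the 49981 regions with at least 1 count) in R 4.3.3, with Benjamini-Hochberg adjustment over all regions, or over all 17345 genes for counts summed over a gene's regions. CPM values are counts scaled to 1000000 by the TMM-adjusted library size. SD and SE are given over n = 2 libraries a tissue and from the fit. The paper calls the 2 libraries of a tissue biological duplicates, but no source says that they came from separate pools of mice. The p-values therefore measure the spread between these libraries, part of which may be technical. Libraries differed by more than counting noise. Named for each gene were the promoter region, the region with the smallest p over the 5 tissues and that with the highest CPM per kb, with up to 3 regions a tissue and direction that had the largest differences. TS regions outside this rule were chosen for mention after their values were seen. The 2 most alike genes and up to 4 genes a list were named by fixed rules. Members, lists and rules were chosen with earlier results of these data known. Alternatives were DESeq2 1.42.0 as test and as scaling, library size alone, removal of each library's GC trend (loess, span 0.3), a filter of 10 counts in 2 libraries, a replicate block, thinning, pairs of tissues on their own, nearest TSS alone, adjusted p in each contrast and each library left out.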

Additional observations from a re-analysis of the deposited data

How the results depend on the processing

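The counts for BM moved by less than 1.5 times under the other scalings, tools and filters, except that asking for an adjusted p in each contrast left 7 regions higher in BM. That threshold also left 0 higher in LI, 0 in lung and 0 in SI, with 1 lower in lung and 3 lower in SI, and the shares of all regions at it are not given. With library size alone, 0 were higher in LI and 7 in lung, with 4 lower in LI and 2 in lung. With the GC trend removed, 0 were higher in LI and 4 in lung, with 1 lower in LI. With counts thinned to the smallest library, 3 were higher in LI, 2 in pancreas and 1 in SI, with 1 lower in LI and 2 in SI. With each pair of tissues on its own 4 libraries, 3 were higher in LI and 4 in lung, with 3 lower in SI. With every RefSeq model, predicted ones too, a choice made after seeing the data, 123 regions belonged to the genes, 3 were higher in LI and 3 lower in SI. The cause of these shifts was not tested. With 1 library left out, the tissue left with a lone library being assumed to vary like the others, 65 to 103 regions differed over the tissues. Higher regions then ran from 7 to 13 in BM, 1 to 8 in LI, 1 to 3 in lung, 1 to 2 in pancreas and 0 to 4 in SI, and lower ones from 16 to 24, 0 to 2, 1 to 4, 0 to 2 and 2 to 14. Genes that differed ran from 3 to 5 and gene and tissue pairs from 6 to 13. Of the values of named regions and genes, 320 stayed on their side of the threshold and 30 lost it under other settings, 340 and 60 with 1 library left out, and none turned its direction.

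The replicate numbers gave no pairing common to all tissues: deviations of same-numbered libraries correlated from -0.243 to 0.210, above 0.1 in 4 of 10 pairs. The correlations were 0.181 to 0.210 among LI, lung and SI, and -0.107 to -0.243 between pancreas and each other tissue. Whether same-numbered libraries of some tissues were handled together was not tested. The replicate block gave 13 regions higher and 23 lower in BM, and among named values it ended 1 call, that of the *Bcl11b* region 38.4 kb upstream in lung (log2 -0.91). With the block and the GC trend removed, 1 was higher in LI and 4 in lung, with 3 lower in LI. Pancreas library 2 was the shallowest, with a median of 71 counts a region, and differences at weak regions may not be detectable at that depth.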
